A study of Drosophila melanogaster with 10 samples.

Results

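The genes *dpn*, *wor*, *ase*, *klu*, *grh*, *cas*, *insc*, *mira*, *pros* and *brat*, which act in the stem cells of the fly brain and in their daughters, were followed in mushroom body tissue of *Drosophila* pupae. They were chosen by name: every probe set annotated with exactly 1 of these 10 symbols was taken, out of 10844 genes that the platform annotation names by 1 symbol. All 10 were on the array. Of these, *mira* had 2 probe sets and the other 9 had 1 each, which gives 11 of the 13966 probe sets for fly sequences. No probe set with several symbols held a member's symbol.

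Neuroblasts are the neural stem cells of the fly. A neuroblast divides unequally into a new neuroblast and a smaller ganglion mother cell, which divides once more into neurons or glia. Transcription factors such as *dpn* keep the neuroblast in its state, *insc* helps to orient the division, and the scaffold encoded by *mira* carries the proteins of *pros* and *brat* into the ganglion mother cell, where they end self-renewal. Mushroom body neuroblasts keep dividing into pupal life, after most other central brain neuroblasts have stopped, and they lie close to the neurons they make.

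Arrays at 5 h after puparium formation (n = 3) were compared with arrays at 0 h, the white pupa stage (n = 6). All animals, at both ages, carried UAS-EcRB1[W650A], an ecdysone receptor mutant that acts as a dominant negative, together with the membrane label UAS-mCD8::GFP, under OK107-GAL4 in a yw/w background. OK107-GAL4 is known to be active in mushroom body neurons and their neuroblasts and in some other brain cells. Each sample pooled 40 laser captures of about 100 cell bodies from frozen sections. The descriptions call the arrays biological replicates, but the labels do not say how many animals the captures came from. Where the replicates were not separate sets of animals, the p-values measure technical spread. 1 further array, titled 5 h but described as 0 h, enters no comparison. With no arrays without the transgene analysed here, the values show age under the dominant negative receptor and not the effect of that receptor.

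The capture was checked against its label. The Pax6-type gene *ey*, a marker of mushroom body neurons, read 9.18 to 9.26 on the log2 scale at 5 h and 8.89 to 9.86 at 0 h, and *dac*, another such marker, read 4.33 to 4.53 and 4.23 to 4.51. Both lay above background in all 9 arrays. *dac* lay near 4.36, the median of all fly probe sets. With a further bacterial control included, described later, background at 0 h was 4.25 to 4.57, which *dac* at its lowest there did not reach. The glial gene *repo* also lay above background in all 9 arrays, at 6.97 to 7.56 at 5 h and 5.76 to 7.40 at 0 h, as did the mitotic cyclin gene *CycB*, at 5.74 to 6.33 and 5.72 to 5.97. The captured RNA therefore gave signal for *repo* and *CycB* beside the neuronal markers. Of all fly probe sets, 67.2% lay above background in every 5 h array and 59.9% in every 0 h array. Over the lists used later, 9 of 14 genes listed as glial and 10 of 15 cell division genes lay above it in all 9 arrays. In none of the 9 arrays did 1 gene listed as glial and 2 cell division genes lie above it. Not all genes of the glial list are specific to glia, such as *Nrt* and *loco*, both above background in all 9 arrays. In such bulk RNA, fewer cells of a type and less RNA per cell cannot be told apart.

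Libraries at 0 h stood in 2 sets. Pearson's r, taken over all fly probe sets as a description, was 0.989 to 0.991 among replicates 1 to 3, 0.970 to 0.981 among replicates 4 to 6 and only 0.948 to 0.974 between an array of each set. With the 5 h arrays, r was 0.978 to 0.986 for replicates 1 to 3 and 0.949 to 0.973 for replicates 4 to 6. Replicates 1 to 3 were thus closer to the 5 h arrays than to the other 0 h set. No label gives a reason for the split at 0 h, so the members' differences, and the list results that depend on it, are also given against each set. The difference between 3' and 5' actin control probe sets, a measure of RNA quality, was 8.46 to 8.63 on the log2 scale at 5 h and 7.45 to 8.10 at 0 h. The ages did not overlap in this measure, so the covariate fit given at the end cannot tell it apart from age. Its part in the results was not tested.

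6 of the 10 genes gave signal above background at both ages, and the other 4 gave none in any array. Background was taken in each array as the highest of 14 control probe sets for bacterial sequences, 3.41 to 3.64 at 5 h and 3.47 to 3.99 at 0 h. The 6 genes above it in every array were *mira*, *brat*, *pros*, *dpn*, *wor* and *cas*. The 4 that did not reach it were *ase*, *insc*, *klu* and *grh*. Over all fly probe sets, 67.2% lay above background in every 5 h array and 59.9% in every 0 h array, and 22.0% lay above it in none of the 9. The share of members above background was thus near that of all probe sets at 0 h. *mira*, *pros* and *brat* were among those detected. Of 7 other listed basal determinants and partners, 4 lay above background in all 9 arrays. Among the rest, *numb* lay above it in none, and *pon* in 2 arrays at 5 h and 3 at 0 h.

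**Figure D1:**
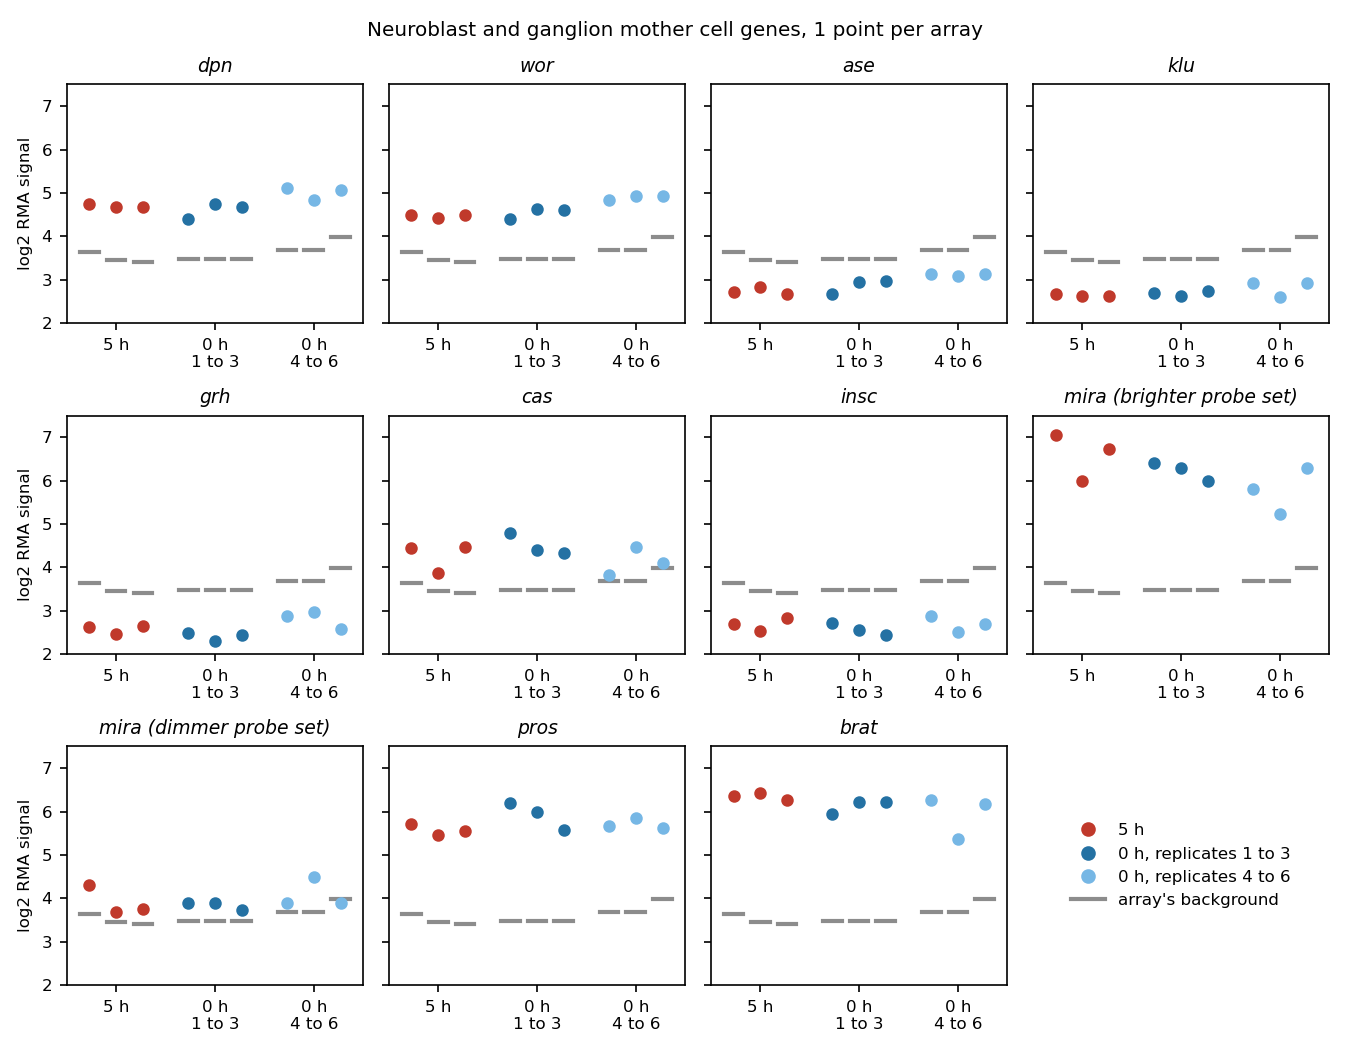
Log2 RMA signal (vertical axis) of each member probe set in each array, at 5 h (left, red) and in 0 h replicates 1 to 3 and 4 to 6 (blue shades); grey bars mark that array's background. The points of *mira* (brighter probe set), *pros*, *brat*, *dpn*, *wor* and *cas* lie above the bars in every array, and those of *ase*, *klu*, *grh* and *insc* lie below them in every array.

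Of the 3 genes whose proteins pass to the daughter cell, none passed the test between the ages. *mira*, the scaffold gene, read 7.06, 5.98 and 6.73 on the log2 scale at 5 h with its brighter probe set (142533_at), against 5.23 to 6.40 around a median of 6.14 at 0 h. The 5 h arrays 1 and 3 lay above all 0 h arrays, while 5 h array 2 lay inside their range, so the ages overlapped. *mira* averaged 6.59 ± 0.55 over the 5 h arrays (SD, n = 3) and 6.0 ± 0.44 over the arrays at 0 h (SD, n = 6). The fold was 1.50 with a 95% interval of 0.99 to 2.28, and limma gave an adjusted p of 0.36.

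Across the 9 arrays this probe set had the largest spread of the 10 genes' brightest probe sets, with a range of 1.83 on the log2 scale. Its margin over background was 2.53 to 3.42 at 5 h and 1.55 to 2.93 at 0 h. The other *mira* probe set (141945_at) was much dimmer: it read 4.31, 3.69 and 3.76 at 5 h, against 3.74 to 4.49 at 0 h with a median of 3.89, and was not above background in 1 of the 6 arrays at 0 h. The 2 probe sets disagreed in their age difference, which was 0.59 ± 0.28 (SE) in the brighter and -0.05 ± 0.18 (SE) in the dimmer on the log2 scale. They also disagreed within 1 array: in 0 h replicate 5 the brighter was at its lowest of all 9 arrays and the dimmer at its highest.

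*brat*, which encodes a translational repressor that limits growth of the daughter cell, read 6.35, 6.42 and 6.27 at 5 h (probe set 153872_at), against 5.36 to 6.27 around a median of 6.19 at 0 h. All 3 arrays at 5 h lay above all 6 at 0 h, but the gap between the nearest arrays was only 0.0061 on the log2 scale. *brat* was the 1 member of 10 with separate ranges at the 2 ages, and 9.79% of all fly probe sets were separated in this way. Its difference was 0.32 ± 0.18 (SE), a fold of 1.25 with a 95% interval of 0.94 to 1.65, and did not pass limma (adjusted p = 0.43). Without 0 h replicate 5, which read 5.36, the difference was 0.18 (limma adjusted p = 0.47).

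*pros*, the homeodomain gene whose protein moves into the ganglion mother cell nucleus, ran the other way. It read 5.71, 5.46 and 5.56 at 5 h (probe set 143496_at), against 5.57 to 6.20 at 0 h with a median of 5.76. Arrays 2 and 3 at 5 h lay below all 6 arrays at 0 h and array 1 lay inside their range, so the ages overlapped. The difference was -0.24 ± 0.15 (SE) on the log2 scale, with an interval of -0.56 to 0.09 and a limma adjusted p of 0.46. *pros* is also expressed in some young neurons and glia, so its signal is not specific to ganglion mother cells.

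Among the detected transcription factor genes of the neuroblast itself, *dpn*, *wor* and *cas*, none passed the test either. *dpn*, a Hes-type factor that keeps neuroblasts self-renewing, read 4.75, 4.67 and 4.68 at 5 h (probe set 143584_at), against 4.39 to 5.11 at 0 h with a median of 4.79. The 3 arrays at 5 h lay within the 0 h range and close together (SD 0.04). Its margin over background was 1.11 to 1.27 at 5 h and 0.92 to 1.43 at 0 h. The difference was -0.10 ± 0.15 (SE; limma adjusted p = 0.74).

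*wor*, a Snail-family zinc finger gene of neuroblasts, read 4.49, 4.42 and 4.49 at 5 h (probe set 143220_at), against 4.41 to 4.94 at 0 h with a median of 4.73. The 5 h arrays were again tightly grouped at the low end of the 0 h range, and overlapped it through 0 h replicate 1. The difference was -0.26 ± 0.13 (SE), a fold of 0.84 with an interval of 0.69 to 1.02 (limma adjusted p = 0.39). *cas*, a zinc finger gene of the temporal series through which neuroblasts pass in the embryo, read 4.45, 3.86 and 4.47 at 5 h (probe set 154755_at), against 3.83 to 4.78 at 0 h with a median of 4.37. Its margin over background was 0.42 to 1.06 at 5 h and 0.10 to 1.31 at 0 h, and its difference was -0.06 ± 0.20 (SE; limma adjusted p = 0.89).

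The call for *cas* depended on the controls used. A further bacterial control, for the 3' end of phe, was left out of the background because its mean of 4.40 lay above 4.36, the median of all fly probe sets. With it included, *cas* lay above background in 2 of 3 arrays at 5 h and in 1 of 6 at 0 h, and 5 members remained above it in every array at each age, a level reached by 46.7% of all fly probe sets at 5 h and 41.2% at 0 h. *dpn* and *wor* still lay above it in all 9 arrays.

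The other 4 genes were not above background, so their differences, which enter the counts over all 10 genes, are not read as changes in transcript level. *ase*, a proneural bHLH gene of neuroblasts and ganglion mother cells, read 2.66 to 2.83 at 5 h and 2.67 to 3.13 at 0 h. *klu*, a zinc finger gene of neuroblast self-renewal, read 2.62 to 2.67 and 2.60 to 2.93. *grh*, a late temporal factor that keeps neuroblasts dividing, read 2.46 to 2.65 and 2.29 to 2.98. *insc*, which links the apical polarity complex to the spindle, read 2.52 to 2.84 and 2.43 to 2.88. The probe sets were 143079_at for *ase*, 143712_at for *klu*, 141438_at for *grh* and 143675_at for *insc*. These values lay 0.50 or more below each array's background on the log2 scale, and the 14 controls averaged 2.91 to 2.98 in the arrays at 5 h and 2.88 to 3.23 at 0 h. A probe set without signal shows only that no transcript was measurable by it in this pool of cells.

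None of the 10 genes passed the test between the ages, where limma with Benjamini-Hochberg adjustment over all 13966 fly probe sets passed 1.25% of them (1.01% higher and 0.236% lower at 5 h). The adjusted p of the members ranged from 0.36 to 0.93, and 0 of 10 reached an unadjusted p of 0.05, against 14.7% of all probe sets. With an exact permutation test on each probe set, for which 84 divisions of the 9 arrays exist, 0 members passed after adjustment. The smallest p that test can give is 0.012, and only where the ages do not overlap, as in 9.79% of all probe sets. That left almost no room to reach 0.05 after adjustment, so its 0 is no support. By sign alone, 3 members read higher at 5 h and 7 lower, and their median difference was -0.08 on the log2 scale, against -0.07 over all fly probe sets. The members' median was 0.03 against 0 h replicates 1 to 3 and -0.16 against replicates 4 to 6, where that of all fly probe sets was 0.00 and -0.12. The 95% intervals still allowed *mira* a fold of up to 2.28 and *brat* up to 1.65, and *wor* a fold as low as 0.69.

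**Figure D2:**
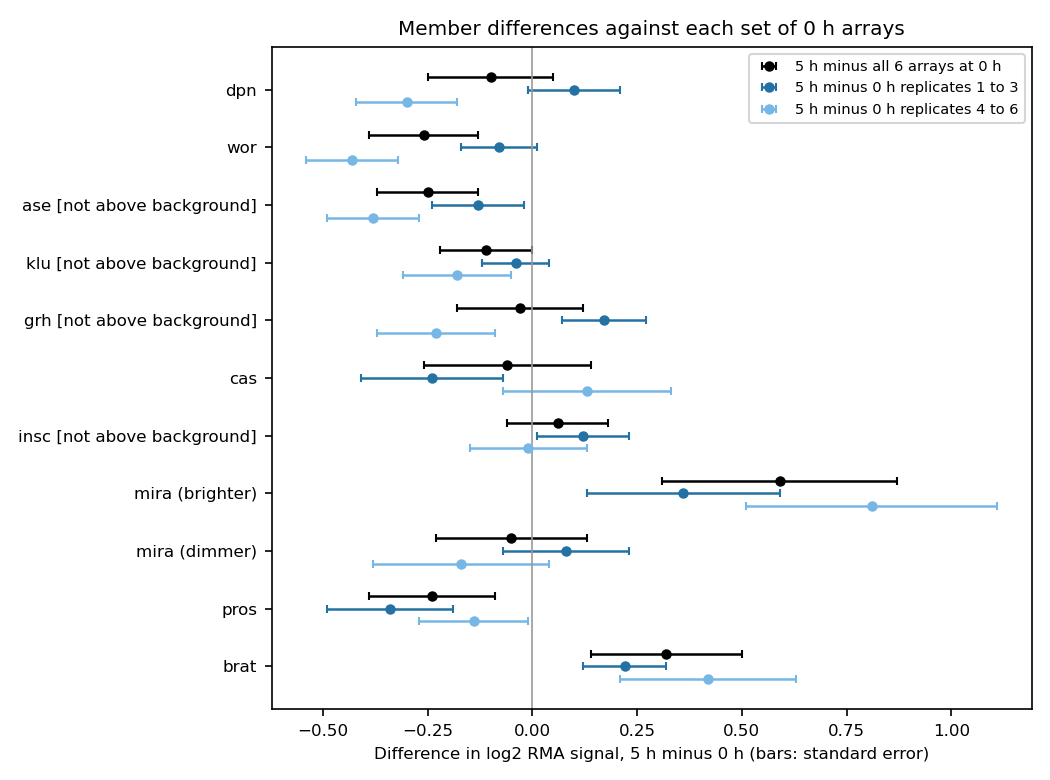
Difference in log2 RMA signal, 5 h minus 0 h, of each member probe set (horizontal axis), against all 6 arrays at 0 h (black), replicates 1 to 3 (dark blue) and replicates 4 to 6 (light blue); bars are standard errors. *mira* (brighter) and *brat* lie right of 0 and *wor* and *pros* left of 0 against each set, whereas *dpn* lies at 0.10 against replicates 1 to 3 and -0.30 against replicates 4 to 6.

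The sign of *mira*, *brat*, *pros* and *wor* was the same against each 0 h set, and for *dpn* and *cas* it turned. *mira* differed by 0.36 ± 0.23 (SE) from 0 h replicates 1 to 3 and by 0.81 ± 0.30 from replicates 4 to 6, with limma adjusted p of 0.47 and 0.076. *brat* differed by 0.22 ± 0.10 and 0.42 ± 0.21 (limma adjusted p = 0.27 and 0.17), and *pros* by -0.34 ± 0.15 and -0.14 ± 0.13 (limma adjusted p = 0.25 and 0.43). *dpn* differed by 0.10 ± 0.11 from replicates 1 to 3 and by -0.30 ± 0.12 from replicates 4 to 6 (limma adjusted p = 0.70 and 0.092). *cas* differed by -0.24 ± 0.17 and 0.13 ± 0.20 (limma adjusted p = 0.53 and 0.65).

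Against replicates 1 to 3, 0 of the 10 members passed limma, where 8.11% of all probe sets did (4.37% higher and 3.74% lower); 1 member, *pros*, had an unadjusted p below 0.05, as had 19.5% of all probe sets. Against replicates 4 to 6, *wor* fell by 0.43 ± 0.11 (SE; limma adjusted p = 0.021), while against replicates 1 to 3 its difference was -0.08 ± 0.09 (limma adjusted p = 0.74). *ase*, below background in all 9 arrays, was at -0.38 ± 0.11 against replicates 4 to 6 and -0.13 ± 0.11 against replicates 1 to 3, with limma adjusted p of 0.037 and 0.60. These 2 of 10 stand beside 22.0% of all probe sets in that comparison, 12.5% higher and 9.5% lower. Without adjustment 4 members (*dpn*, *mira*, *wor* and *ase*) had a p below 0.05 there, and 39.1% of all probe sets.

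The 0 h sets did not overlap for 4 of the 10 members, and for 43.6% of all fly probe sets, so that the members' share was near the background. *dpn* read 4.60 ± 0.18 in 0 h replicates 1 to 3 and 5.00 ± 0.14 in replicates 4 to 6 (SD, n = 3 each), and *wor* read 4.54 ± 0.12 and 4.90 ± 0.06. *ase* read 2.87 ± 0.17 and 3.12 ± 0.02, and *grh* 2.40 ± 0.10 and 2.81 ± 0.21. All 4 were higher in replicates 4 to 6.

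The bacterial controls moved with them: the mean of the 14 was 2.91 to 2.98 at 5 h, 2.88 to 2.98 in 0 h replicates 1 to 3 and 3.15 to 3.23 in 0 h replicates 4 to 6. *mira* and *cas* went the other way, reading 6.23 ± 0.21 and 4.50 ± 0.24 in replicates 1 to 3 and 5.78 ± 0.54 and 4.13 ± 0.32 in replicates 4 to 6, with overlap. The part of the control level in these differences was not tested.

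**Figure D3:**
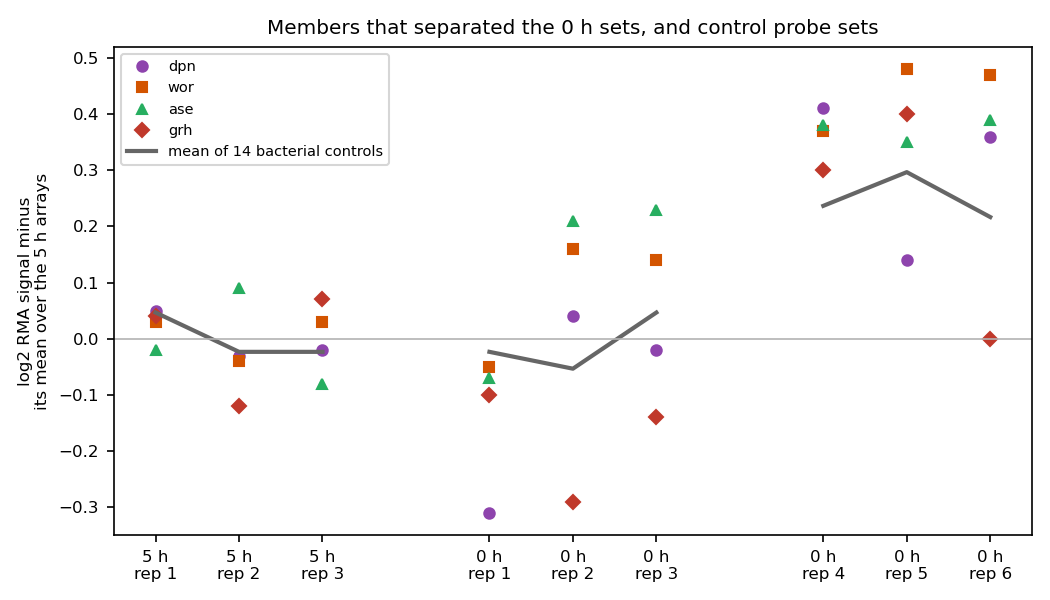
Log2 RMA signal of *dpn*, *wor*, *ase* and *grh* in each array minus that gene's mean over the 5 h arrays (vertical axis), with arrays at 5 h on the left and the 0 h sets to the right; the grey lines join the mean of the 14 bacterial controls within each set of arrays. The 4 genes and the controls all lie higher in 0 h replicates 4 to 6 than in 0 h replicates 1 to 3.

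Patterns over the arrays were compared for the 3 detected genes with the largest spread. Likeness was the root mean square difference over the 9 arrays, after each probe set was centred on its own mean. The probe sets closest to *mira* were those of *vir-1* and *Tcs3*, each at 0.22, where the median over all named genes' probe sets was 0.56. Those closest to *brat* were *l(1)G0289* at 0.12 and *Nuak* at 0.14 (median 0.39), and those closest to *cas* were *Tmhs* at 0.12 and CG31549 at 0.15 (median 0.37). The closest of so many probe sets lie below the median by how they were chosen. No chance level was computed, so these genes are not read as related to the members.

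Lists of other genes of neuroblast division gave few calls, which depended on the 0 h set. Of 10 measured genes for apical polarity and the spindle, 0 passed limma and 1 (*aPKC*) had an unadjusted p below 0.05; the list's median difference was 0.06. Against 0 h replicates 1 to 3 alone 0 passed, and against replicates 4 to 6 alone 2 rose and 1 fell. The G protein gene *Galphai* read 4.39 ± 0.18 at 5 h and 4.05 ± 0.47 at 0 h (limma adjusted p = 0.51). Its difference was -0.05 against replicates 1 to 3 and 0.72 against replicates 4 to 6 (limma adjusted p = 0.91 and 0.011). *Galphai* lay above background in only 4 of the 6 arrays at 0 h, with a lowest value of 3.38, so these differences start near the floor. The polarity gene *l(2)gl* was below background in all 9 arrays, as *insc* was. The spindle orientation gene *pins*, a partner of *insc* chosen after its values were seen, read 7.06 ± 0.02 and 6.78 ± 0.77 and lay above background in all 9 arrays (limma adjusted p = 0.70). Its sign turned with the 0 h set, at -0.38 and 0.94 (limma adjusted p = 0.084 and 0.0041). Of 7 genes for basal determinants and their partners, 0 passed limma and 2 (*mei-P26* and *osa*) had an unadjusted p below 0.05, with a median difference of -0.07. Against replicates 1 to 3 alone 1 rose and 1 fell, and against replicates 4 to 6 alone 2 rose. The RNA-binding gene *stau*, whose protein rides on the *mira* scaffold, read 7.03 ± 0.06 and 7.49 ± 0.60, and the translational regulator *mei-P26*, a relative of *brat*, 4.11 ± 0.01 and 3.83 ± 0.14 (limma adjusted p = 0.47 and 0.25). *mei-P26* rose by 0.34 against replicates 1 to 3 (limma adjusted p = 0.039) and differed by 0.21 from replicates 4 to 6 (limma adjusted p = 0.21). *stau* depended on the 0 h set, at -0.97 against replicates 1 to 3 (limma adjusted p = 0.0026) but 0.05 with replicates 4 to 6 as the baseline (limma adjusted p = 0.79).

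Proneural and Notch target genes read lower at 5 h than the 6 pooled arrays at 0 h, without passing. Of 6 measured, 0 passed limma and 0 had an unadjusted p below 0.05, and their median difference was -0.20, against -0.08 for the members and -0.07 for all fly probe sets. It was -0.09 against replicates 1 to 3, where *sc* read 0.03 higher at 5 h, and -0.34 against replicates 4 to 6, where *da* read 0.03 higher, with 0 passing limma in each. The proneural gene *ac*, a relative of *ase*, read 3.15 ± 0.10 at 5 h and 3.48 ± 0.38 at 0 h and was above background in 1 array only. The Notch target *E(spl)mbeta-HLH*, of the same Hes class as *dpn*, read 6.28 ± 0.19 and 6.56 ± 0.19 (limma adjusted p = 0.45 and 0.38).

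Among 15 temporal and other progenitor factors, *Syp* rose and 14 did not pass. *Syp*, an RNA-binding protein of late neuroblasts and neurons, read 5.92 to 6.24 at 5 h and 5.10 to 5.75 at 0 h, and rose 1.71-fold (limma adjusted p = 0.034). It passed against each 0 h set too, at 0.59 and 0.95 (limma adjusted p = 0.019 and 0.0011). *tll*, a nuclear receptor gene known in mushroom body neuroblasts and their young daughters, was singled out after its values were seen. It read 4.99 to 5.50 at 5 h and 4.22 to 4.90 at 0 h, without overlap, a difference of 0.79 ± 0.18 (SE; limma adjusted p = 0.063). Against each 0 h set alone *tll* passed, at 1.05 against replicates 1 to 3 (limma adjusted p = 0.0020) and at 0.54 with replicates 4 to 6 as the baseline (limma adjusted p = 0.037). The median of this list was -0.17, and -0.01 and -0.11 against the sets. Against replicates 1 to 3 alone 2 of its genes rose, and against replicates 4 to 6 alone 3 rose and 4 fell.

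**Figure D4:**
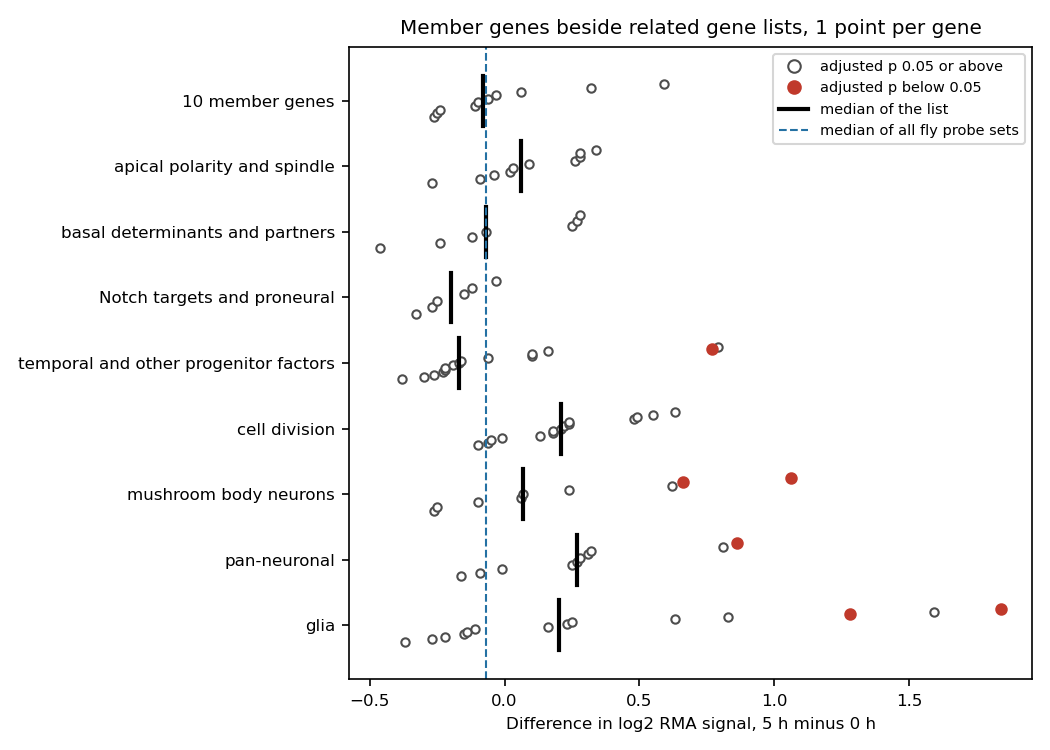
Difference in log2 RMA signal, 5 h minus 0 h (horizontal axis), of each measured gene in the 10 member genes and 8 related lists; filled red points have a limma adjusted p below 0.05, black bars are list medians and the dashed line is the median of all fly probe sets, -0.07. The members lie between -0.26 and 0.59 with no red point, and their median of -0.08 is close to the dashed line.

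Markers of cycling cells, neurons and glia stood beside the members as follows. Of 15 cell division genes 0 passed limma, 4 had an unadjusted p below 0.05 and 11 read higher at 5 h, with a median difference of 0.21. The helicase subunit gene *Mcm5* read 5.14 ± 0.36 and 4.51 ± 0.29 and the mitotic kinesin gene *Klp61F* 6.03 ± 0.34 and 5.48 ± 0.15 (limma adjusted p = 0.15 and 0.10). Against replicates 1 to 3 alone 2 division genes rose (median 0.15), and against replicates 4 to 6 alone 4 rose (median 0.27), *Mcm5* by 0.75 and *Klp61F* by 0.65 (limma adjusted p = 0.032 and 0.023). Of 9 mushroom body neuron genes *toy* and *14-3-3zeta* rose and 7 did not pass (median 0.07, and 0.19 and 0.09 against the sets). Of 10 pan-neuronal genes *elav* rose and 9 did not pass (median 0.27, and 0.25 and 0.27 against the sets). Of 14 genes listed as glial *bdl* and *nrv2* rose and 12 did not pass (median 0.20). The mean log2 level of that list was 5.76 to 5.89 in the arrays at 5 h and 5.07 to 5.72 at 0 h. *bdl* and *nrv2* each lay above background in 5 of the 6 arrays at 0 h, with lowest values of 3.86 and 3.75 there. The glial median turned with the 0 h set: it was -0.05 against replicates 1 to 3, where 2 rose, and 0.45 against replicates 4 to 6, where 6 rose and 2 fell. *toy*, *14-3-3zeta*, *elav*, *bdl* and *nrv2* rose against each set alone (limma adjusted p from 9.5e-05 to 0.013). The part of these cell types in the member values was not tested.

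With the actin 3' to 5' difference as a covariate, 0 members passed. That measure did not overlap between the ages, so the fit cannot separate RNA quality from age and its 0 is no support. *mira* then differed by 1.12 ± 0.53 (SE) and *brat* by 0.86 ± 0.32 on the log2 scale, both with a limma adjusted p that rounds to 1, and *dpn* turned to 0.37 ± 0.25.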

How the data were processed

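Each sample was 1 Affymetrix Drosophila Genome Array. Per the labels' protocols, about 22 ng of RNA was amplified in 2 rounds and biotin-labelled. The deposited values are log2 signals per probe set, made by the authors. The submitters' processing notes name RMA and the Affymetrix Expression Console; versions and which arrays were processed together are not given in the sources used here. Arrays have no read depth, and their number limits the precision.

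Ages came from the descriptions. Of 14010 probe sets, 44 controls were left out and 13966 tested two-sided with limma's moderated test (version 3.58.1, under R 4.3.3), adjusted over all by Benjamini-Hochberg at a threshold of 0.05 and with no filter. The fit was tested on simulated arrays with independent noise. These held no split among the 0 h arrays, so that check does not cover the split seen here. A gene with several probe sets was represented by that with the highest mean. The platform annotation gave 1 symbol for 12443 probe sets, several for 327 and none for 1196; updating changed 0 member symbols. List genes without a probe set named by that symbol were not analysed here. Named genes were all members, part of the planned marker genes, up to 4 passing genes per list or else 2 with the largest differences, the closest patterns, and some beyond this rule. The planned markers *nSyb*, *brp*, *drpr* and *PCNA*, not named above, lay above background in all 9 arrays. Against all 6 arrays at 0 h they did not pass (limma adjusted p = 0.28, 0.38, 0.81 and 0.30). *brp* passed against replicates 1 to 3 alone, and *drpr* and *PCNA* against replicates 4 to 6 alone. Members, lists and alternatives were chosen with earlier results of these data known.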

Additional observations from a re-analysis of the deposited data

Results flagged for a closer look

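In 0 h replicate 5, 2 of the 11 member probe sets stood apart from the other 5 arrays at 0 h by Dixon's criterion. Chance alone meets it in about 1 of 20 groups of like arrays, but the 0 h arrays stood in 2 sets. The share of all fly probe sets that meet it was not computed, so these 2 are not read as an excess among the members. In 0 h replicate 5 *brat* read 5.36, against 5.95 to 6.27 in the other arrays at 0 h. The dimmer *mira* probe set read 4.49, against 3.74 to 3.90. Without that array the age difference of *brat* was 0.18 and that of the dimmer *mira* probe set 0.06 on the log2 scale (limma adjusted p = 0.47 and 0.86).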

How the results depend on the processing

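Of 23 refits, 1 passed members: using only 0 h replicates 4 to 6, 2 passed (*wor* and *ase*). The exact permutation test had almost no room to pass a gene, and the actin covariate fit could not tell age from RNA quality. Neither counts as support. A threshold of 0.1 and counting any probe set of a member also gave 0. *mira* (brighter), *brat*, *pros*, *wor* and *ase* kept their sign wherever tested; the filter on dim probe sets left the 4 members below background untested. Of 249 member differences 30 changed sign, none past the threshold, and the cause was not tested. Using only 0 h replicates 1 to 3, or a term for replicates 4 to 6, gave 0.10 for *dpn*, 0.08 for the dimmer *mira* probe set and 0.17 for *grh*; so did the fixed replicate block over replicates 1 to 3, where the members' lowest adjusted p in limma was 0.22. Using only replicates 4 to 6 gave -0.01 for *insc* and 0.13 for *cas*. The actin covariate gave 0.37 for *dpn*, 0.02 for *grh* and 0.18 for *klu*. Repeated quantile normalization gave 0.01 for the dimmer *mira* and 0.06 for *grh*, median centring 0.01 and array weights 0.09 for *grh*. With the conflicting array placed at 5 h, values were 0.03 for the dimmer *mira* and 0.01 for *cas*. The random replicate block gave 0.02 for *cas*. Leaving out 1 array gave -0.16 to 0.14 for *cas*, -0.09 to 0.04 for *grh*, -0.02 to 0.14 for *insc* and -0.24 to 0.07 for the dimmer *mira*.

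Arrays with the same replicate number in their descriptions did not deviate together (r of -0.333 to -0.133, against -0.119 to 0.334 for other pairs). The titles number the 5 h arrays otherwise. These few deviations cannot exclude a pairing of the samples, and no pairing entered the main fit. The count above background was 6 at each age and 5 with the highest control over all 9 arrays; requiring every probe set of a member gave 5 at 0 h. With the phe control included, an alternative chosen after seeing the data, it was also 5, and with 8 mouse and yeast controls, likewise added, it was 6. Members near background have a compressed difference, and 3 arrays at 5 h leave wide intervals.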

Other observations

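The array titled 5 h but described as 0 h read 6.97 for the brighter *mira* probe set and 4.21 for the dimmer, 6.27 for *brat*, 5.55 for *pros*, 4.97 for *dpn*, 4.72 for *wor* and 4.54 for *cas* on the log2 scale. All of these lay above its background of 3.43. It read 2.68 for *ase*, 2.67 for *insc*, 2.69 for *klu* and 2.51 for *grh*, all below it.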
